A study of Mus musculus with 6 samples.

Results

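Metallothioneins are small intracellular proteins in which nearly every metal-binding contact is a cysteine. The mouse has 4 such genes, Mt1, Mt2, Mt3 and Mt4, and the series measured them by RNA sequencing in 6 mouse libraries. The members were chosen by gene symbol and are 4 of the 19330 genes in the deposited series table. The set was selected on the contrast between embryonic stem cells and induced pluripotent stem cells, in which Mt4 stood out, so values for that contrast are given below as a description, without a test.

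Embryonic stem cells (ESC, titled B6 and with the source name B6/blu) and mouse embryonic fibroblasts (MEF) gave 1 library each. Induced pluripotent stem cells (iPSC) gave 4, of which lines 3 and 7 are labelled as controls and lines 5 and 13 carry the palmitoylcarnitine label (PC iPSC). Palmitoylcarnitine is the acylcarnitine form of palmitate. Per the labels, the ESC and all iPSC lines were grown with leukemia inhibitory factor in serum medium on fibroblast feeders treated with mitomycin C, and the MEF in serum medium without that factor being named for them. Not given in the sources used here are the strain behind the ESC title, the dose and timing of palmitoylcarnitine, and the reprogramming method. No label states that the lines are independent cultures or derive from different animals, and p-values therefore reflect the spread between these samples, which may be technical.

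As background, Mt1 and Mt2 are made in most tissues and bind zinc and copper as well as toxic metals such as cadmium. Their transcription rises when free zinc activates the zinc-finger factor Mtf1, which binds short metal response elements near the gene start, and also with glucocorticoids and oxidative stress. Mt3 is known mainly from the brain, and Mt4 from the differentiating layers of stratified squamous epithelium.

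The 4 genes lie side by side on the plus strand of chromosome 8 (GRCm38, the build also called mm10), in the order Mt4 (chr8:94137204-94139031), Mt3 (chr8:94152607-94154148), Mt2 (chr8:94172618-94173567) and Mt1 (chr8:94178883-94180327). All 4 are protein-coding, and the first annotated GENCODE transcript of each has 3 exons. The cluster spans 43.1 kb, with gaps of 13.6 kb, 18.5 kb and 5.32 kb between neighbours, and 0 other genes of the deposited table lie between them. GENCODE places the antisense gene Gm45774 on the minus strand across 83.7% of Mt2 (chr8:94170748-94173412). It is not a row of the table used here, and the use of strand in counting is not given in the sources used here, so reads of Mt2 and of this antisense gene cannot be told apart.

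The coding sequences show the feature that the family is named for. They are printed here from the GENCODE M21 transcripts, 5′ to 3′ with the stop codon, and capitals mark the cysteine codons TGC and TGT.
Mt1: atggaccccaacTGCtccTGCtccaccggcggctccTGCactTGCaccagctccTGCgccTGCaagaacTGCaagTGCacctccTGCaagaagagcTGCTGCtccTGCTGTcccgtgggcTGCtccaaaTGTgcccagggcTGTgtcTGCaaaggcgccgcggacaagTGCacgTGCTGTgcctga
Mt2: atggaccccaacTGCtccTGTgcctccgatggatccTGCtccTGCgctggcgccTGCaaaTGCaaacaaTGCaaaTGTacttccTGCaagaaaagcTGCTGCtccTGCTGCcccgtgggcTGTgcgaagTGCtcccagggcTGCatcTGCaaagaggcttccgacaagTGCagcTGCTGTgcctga
Mt3: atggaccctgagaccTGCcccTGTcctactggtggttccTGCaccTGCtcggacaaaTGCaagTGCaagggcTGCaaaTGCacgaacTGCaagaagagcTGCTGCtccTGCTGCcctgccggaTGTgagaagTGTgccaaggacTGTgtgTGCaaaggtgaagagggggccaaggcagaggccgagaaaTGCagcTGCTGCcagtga
Mt4: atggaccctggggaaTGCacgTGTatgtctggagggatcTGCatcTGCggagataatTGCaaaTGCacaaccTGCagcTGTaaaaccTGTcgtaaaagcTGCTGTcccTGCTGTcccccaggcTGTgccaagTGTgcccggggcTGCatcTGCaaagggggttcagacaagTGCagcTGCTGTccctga
Each gene has 20 cysteine codons, among 61 codons in Mt1, 61 in Mt2, 68 in Mt3 and 62 in Mt4, so that cysteine takes 32.8% of the Mt1 and Mt2 codons, 29.4% of those of Mt3 and 32.3% of those of Mt4. Mt1 and Mt2 were the most alike pair, identical at 79.6% of aligned coding bases, and the other pairs ranged from 63.3% between Mt3 and Mt4 to 73.2% between Mt2 and Mt4. The longest run of identical bases shared by the transcripts of any pair was 27, between Mt1 and Mt3, and the shortest such maximum was 11. Reads longer than these runs differ between the members, and the labels do not state the read length.

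The stretch before the gene start was searched for the core of the metal response element, written as TGCACNC or TGCGCNC and read on both strands, in the RefSeq windows of GRCm38.p6 that run from 250 bases before to 50 bases after each start. The Mt2 and Mt4 stretches before the start are shown, with matches in capitals. Mt2 is the member with the highest level in ESC, and Mt4 the member that stood out between ESC and iPSC.
Mt2, chr8:94172368-94172617, plus strand: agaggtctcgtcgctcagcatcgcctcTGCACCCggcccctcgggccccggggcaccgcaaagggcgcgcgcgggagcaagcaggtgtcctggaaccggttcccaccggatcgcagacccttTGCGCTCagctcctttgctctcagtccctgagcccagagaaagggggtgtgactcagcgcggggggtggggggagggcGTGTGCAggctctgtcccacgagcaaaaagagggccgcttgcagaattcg
Mt4, chr8:94136954-94137203, plus strand: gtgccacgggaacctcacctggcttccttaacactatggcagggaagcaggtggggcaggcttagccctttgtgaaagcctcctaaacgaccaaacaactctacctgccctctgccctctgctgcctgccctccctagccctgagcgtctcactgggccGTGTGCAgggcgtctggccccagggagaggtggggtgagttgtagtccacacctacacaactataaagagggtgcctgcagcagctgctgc
Mt2 held 4 separate matches, 3 of them before the start (223, 128 and 50 bases upstream) and 1 after it. For Mt1 the RefSeq window is set on a start at 94179089, which lies 206 bases inside the gene span given above, and the other windows are set on the first base of the span. The Mt1 window held 3 matches, TGCACAC at 23 bases before that start and TGCACTC and TGCGCTC after it. Mt4 held 1 (91 bases before the start) and Mt3 held 1, TGCACAC, after the start. Of 32851 such windows of all genes, 25.7% held at least 1 match, 1.31% held at least 3 and 0.295% held at least 4. These matches describe the letters only, within windows set on the RefSeq starts. Bases outside the windows, including further into the Mt1 span, were not searched, and a match is not a measured binding site.

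Assigned reads came to between 26.51 M and 27.99 M per library, and 16326 to 17463 genes had at least 1 read. A count of 0 allows up to 3 reads, which is 0.107 to 0.113 CPM (counts relative to library size), and this covers counting error only. Even numbers made up 62.4% to 67.5% of counts from 1 to 20 but 48.8% to 50.6% of higher counts, so the number of independent fragments behind a low count may be smaller than the count, and its true interval wider than given. Levels are RPKM, read counts relative to gene length and library size, as deposited. The fibroblast library went partly against a plain fibroblast profile: 8 of 18 pluripotency genes had no read in it and Nanog stood at 0.0482 RPKM, but Pou5f1 stood at 158 RPKM, Sox2 at 88.2 and Klf4 at 124. None of the 16 listed fibroblast genes was at 0 in any library, and their summed level was 8483 RPKM in MEF, 850 in ESC, and 1258, 2040, 2212 and 1887 in control iPSC 3, control iPSC 7, PC iPSC 5 and PC iPSC 13. The ESC and iPSC libraries thus held transcripts of the listed genes to different degrees. In ESC the highest of them were Fn1 (306 RPKM), Vim (207) and Col1a1 (149). The cells that made these transcripts, and the part of feeder cells in the results below, were not tested.

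Mt1 and Mt2 carried nearly all of the metallothionein reads. Together they made up 99.4% of member reads in ESC, 99.6% in MEF and between 99.9% and 100% in the iPSC lines. All member reads came to 623 CPM in ESC, 75.0 in MEF, 229 and 124 in control iPSC 3 and 7, and 246 and 90.5 in PC iPSC 5 and 13. ESC therefore had the largest share of metallothionein transcripts of the 6 libraries and MEF the smallest. In bulk RNA, fewer cells that express a gene and less RNA per cell cannot be told apart.

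Mt1, the first of the broadly expressed pair, stood at 409 RPKM in ESC and 82.1 in MEF. The control lines 3 and 7 held 162 and 91.2, and the PC lines 5 and 13 held 136 and 77.9. ESC lay above every iPSC line, by 2.52 to 5.25 times, while the MEF level fell inside the range of the iPSC lines. The mean over the 4 iPSC lines was 117 ± 39.2 RPKM (SD, n = 4).

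Mt2, the other broadly expressed member, stood at 684 RPKM in ESC and 48.4 in MEF. The control lines 3 and 7 held 241.5 and 127, and the PC lines 5 and 13 held 300.2 and 81.0, with a mean of 187 ± 101 (SD, n = 4). Every iPSC line lay above MEF and below ESC, which exceeded them by 2.28 to 8.44 times. The order of the 6 libraries thus had ESC first and MEF last for Mt2, and the iPSC lines between them spanned a 3.71-fold range.

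**Figure D1:**
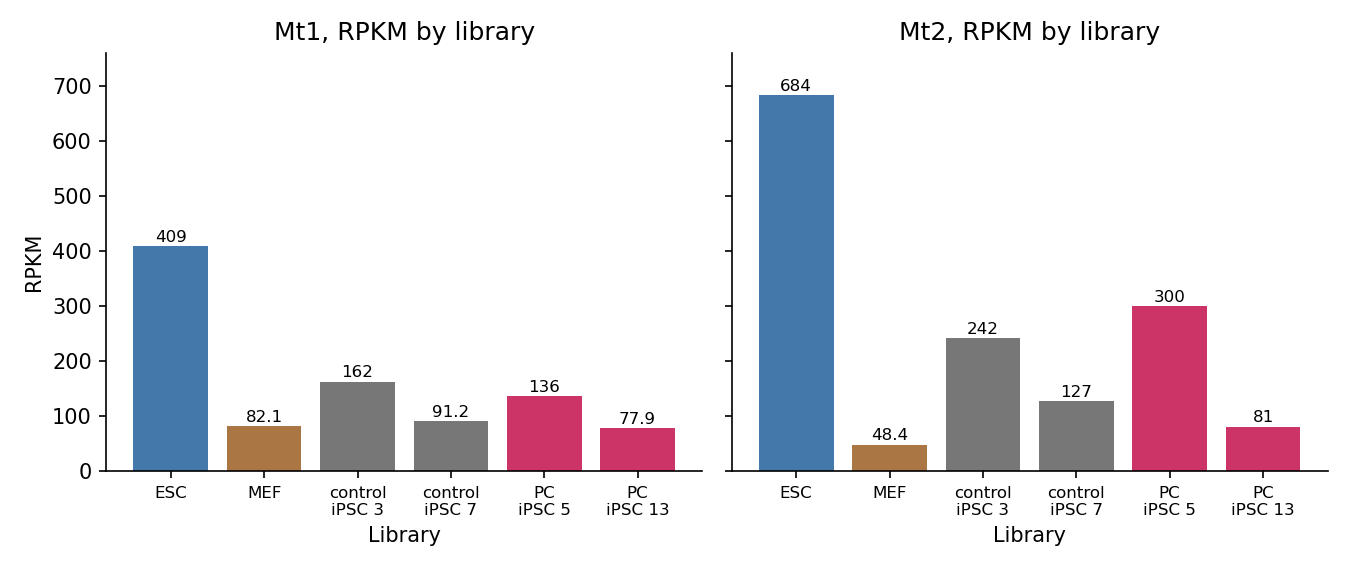
Bars show the deposited RPKM of Mt1 (left) and Mt2 (right) in each of the 6 libraries, with no replicate within a bar; blue is ESC, brown MEF, grey control iPSC and pink PC iPSC. ESC is the tallest bar for both genes (409 and 684 RPKM), and control iPSC 3 and PC iPSC 5 stand above control iPSC 7 and PC iPSC 13.

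As a description, edgeR's fitted log2 difference of iPSC against ESC was -1.86 for Mt1 and -1.92 for Mt2, which places ESC 3.63-fold and 3.78-fold above the mean of the iPSC groups. Without any 1 of the iPSC lines these ran from -2.11 to -1.68 and from -2.53 to -1.60. Against the single MEF library, ESC was 4.99-fold higher in Mt1 RPKM and 14.1-fold higher in Mt2 RPKM, 1 library against 1 and without a replicate check. The ratio of Mt2 to Mt1 in RPKM was 1.67 in ESC, 1.49 and 1.39 in control iPSC 3 and 7, 2.21 and 1.04 in PC iPSC 5 and 13, and 0.590 in MEF. By RPKM, Mt2 was the more abundant of the pair in the ESC and every iPSC library, and Mt1 the more abundant in MEF. In PC iPSC 13 the 2 genes were nearly level, with 1234 reads of Mt1 and 1223 of Mt2.

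The comparison of PC with control iPSC asks whether lines associated with palmitoylcarnitine differ from control lines. Mt1 stood at 107 ± 41.1 RPKM in PC iPSC and 127 ± 50.2 in control iPSC, and Mt2 at 191 ± 155 and 184 ± 80.9 (SD, n = 2 each). In edgeR's quasi-likelihood test the log2 difference of PC against control was -0.27 for Mt1 (SE 0.32, 95% interval -1.04 to 0.50, adjusted p = 0.963). For Mt2 it was 0.01 (SE 0.55, 95% interval -1.31 to 1.34, adjusted p = 1.00). The groups overlapped for both genes. The intervals run from 0.486-fold to 1.41-fold for Mt1 and from 0.404-fold to 2.52-fold for Mt2, so the test does not show that the groups are alike. Leaving out 1 line moved the Mt1 difference between -0.69 and 0.21, changing its sign without control iPSC 3 (0.21) or without PC iPSC 13 (0.05), and the Mt2 difference between -1.18 and 0.66. Over all 16435 tested genes edgeR called 0 (a share of 0%) between PC and control iPSC at an adjusted p under 0.05, with 385 at an unadjusted p under 0.05, and DESeq2 also called 0.

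The spread between iPSC lines was large for this pair and ran across the labelled groups. Control iPSC 3 and PC iPSC 5 held at least 136 RPKM of Mt1 and 241.5 of Mt2, and control iPSC 7 and PC iPSC 13 at most 91.2 and 127. On the scale of log2(RPKM + 1), the SD over the 4 lines was 0.49 for Mt1 and 0.86 for Mt2, beside a median of 0.13 over all tested genes. A larger SD was found for 370 tested genes in the case of Mt1 (2.25%) and for 25 in the case of Mt2 (0.152%). Among the 6400 genes with a mean RPKM of at least 10, where counting error is small, 148 (2.31%) and 13 (0.203%) had a larger SD. The summed level of the fibroblast list, given above, was lowest in control iPSC 3 and highest in PC iPSC 5, and its part in the spread of Mt1 and Mt2 was not tested.

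Against MEF, Mt2 was higher in iPSC and Mt1 was not called. The log2 difference of iPSC against MEF was 1.97 for Mt2 (SE 0.72, 95% interval 0.25 to 3.69, edgeR adjusted p = 0.0455), a 3.91-fold higher level, seen in 4 of 4 lines. For Mt1 it was 0.52 (SE 0.37, 95% interval -0.37 to 1.42, edgeR adjusted p = 0.247), with 3 of 4 lines above MEF. In that comparison 36.5% of all tested genes were called higher in iPSC and 31.6% lower, so a call is common there. The Mt2 call was lost under DESeq2 (log2 difference 1.88, adjusted p = 0.103), limma on log2(RPKM + 1) (1.75, adjusted p = 0.131), library totals without further scaling (1.95, adjusted p = 0.0594) and a minimum mean RPKM of 1 (1.87, adjusted p = 0.0656). Without control iPSC 7 the Mt1 difference was 0.70, but that fit keeps only 1 control line, so no call is read from it.

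Mt3 and Mt4, the members known from brain and from squamous epithelium, had few reads outside ESC. Mt3 had 27 reads in ESC, 4 in MEF, 0 and 1 in control iPSC 3 and 7, and 4 and 0 in PC iPSC 5 and 13. Mt4 had 85 reads in ESC, 4 in MEF, 4 and 2 in control iPSC 3 and 7, and 0 in each of PC iPSC 5 and 13. ESC held the highest count of both genes, and no other library had more than 4 reads of either. In RPKM the ESC levels were 1.797 for Mt3 and 7.76 for Mt4, far under the Mt1 and Mt2 levels in the same library. All 4 members passed edgeR's expression filter, Mt3 and Mt4 only through their reads in ESC.

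**Figure D2:**
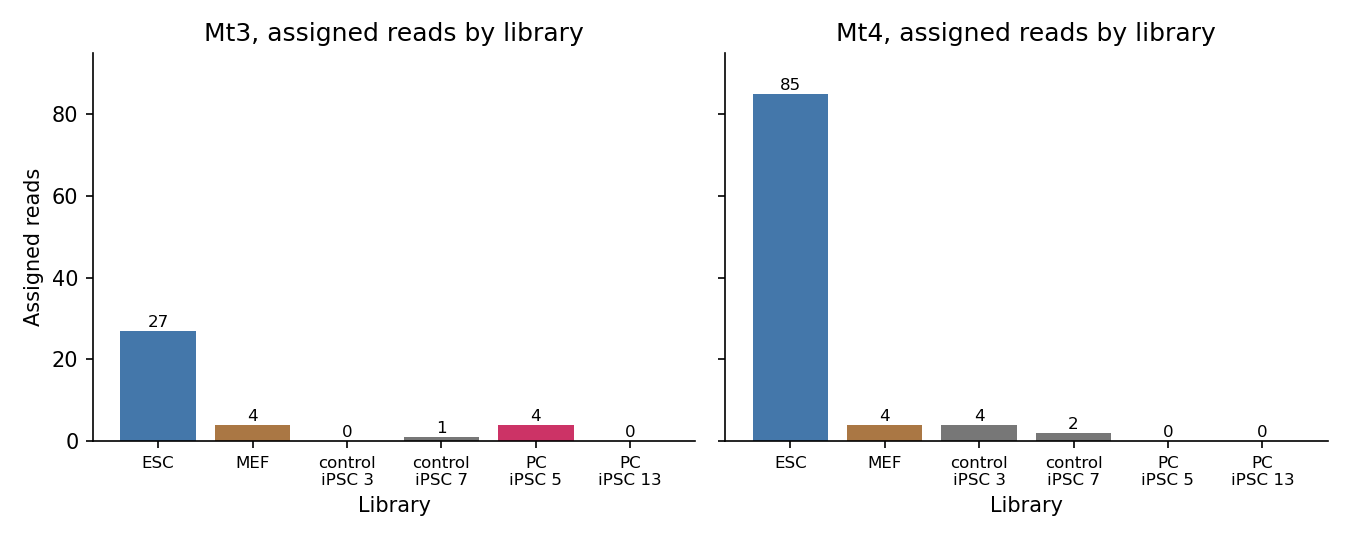
Bars show the assigned reads of Mt3 (left) and Mt4 (right) in each of the 6 libraries, whose totals differ little (26.51 M to 27.99 M); colours are blue for ESC, brown for MEF, grey for control iPSC and pink for PC iPSC. ESC has 27 and 85 reads, and every other library has at most 4.

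Pooling the reads of the 4 iPSC lines, Mt4 was 55.3-fold higher in ESC relative to library totals (95% counting interval 24.4 to 155, 85 reads against 6). It was 27.4-fold higher than in control iPSC (12.1 to 76.9), 21.3-fold higher than in MEF (8.02 to 79.9), and at least 27.5-fold higher than in PC iPSC, where the floor of 3 reads per library replaces the count of 0. Without control iPSC 3 the ratio of ESC to iPSC became 124. Mt3 was 21.1-fold higher in ESC than in the pooled iPSC lines (7.998 to 70.1, 27 reads against 5) and 6.76-fold higher than in MEF (2.36 to 26.6). That Mt3 ratio rested on PC iPSC 5, which held 4 of the 5 reads, and was 78.6 without it. Intervals cover counting error in these libraries and not the spread between ESC cultures, of which there is 1 library. They make no allowance for the choice of Mt4 on the contrast of ESC with iPSC, and they are not a test of it.

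Without ESC neither low member has enough reads for a test to inform. Between PC and control iPSC the edgeR adjusted p was 0.963 for both, and for Mt3 between iPSC and MEF it was 0.340, and nothing is read from these values in either direction. The Mt4 reads of control and PC iPSC did not overlap, with 4 and 2 against 0 and 0, but 31.4% of all tested genes had groups that did not overlap in RPKM, and these counts lie at or near the level that a count of 0 allows.

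Genes flanking the cluster were followed in the same comparisons. Of the 10 neighbours on each side (chr8:93056725-94696242), 18 of 20 passed the filter, and edgeR called 2 of them higher in iPSC than in ESC and 0 lower, where 4.71% of all tested genes were called higher and 5.71% lower. On the scale of log2(RPKM + 1), the differences of iPSC against ESC ran from -0.30 to 1.45 over the 20 neighbours. Those of the members, whose choice used this contrast, are given as a description only and were -1.86 for Mt1, -2.04 for Mt2, -1.37 for Mt3 and -2.95 for Mt4. This scale flattens differences at low levels. The neighbour at -0.30, 9330175E14Rik, stood at 0.303 RPKM in ESC and 0.0593 in iPSC, and edgeR's log2 difference for it was -2.44. For Ces1c, the neighbour at 1.45, it was 2.71. The nearest gene on the Mt4 side is Bbs2, a subunit of the complex that moves membrane proteins into cilia, at 3.84 RPKM in ESC and 4.17 ± 0.504 in iPSC (SD, n = 4), a log2 difference of 0.08 (SE 0.25, edgeR adjusted p = 0.875). On the Mt1 side it is Nup93, a scaffold protein of the nuclear pore, at 44.1 and 59.7 ± 3.82, a difference of 0.40 (SE 0.15, edgeR adjusted p = 0.127).

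The neighbours called higher were the carboxylesterase gene Ces1c, at 0.464 RPKM in ESC and 2.05 to 5.12 in the iPSC lines (edgeR adjusted p = 0.0490), and Cpne2, a calcium-dependent phospholipid-binding copine, at 2.75 and 4.50 to 6.44 (edgeR adjusted p = 0.0473). Between iPSC and MEF 6 of 18 neighbours were called higher and 7 lower, beside 36.5% and 31.6% of all tested genes. Between PC and control iPSC 0 of 18 were called.

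**Figure D3:**
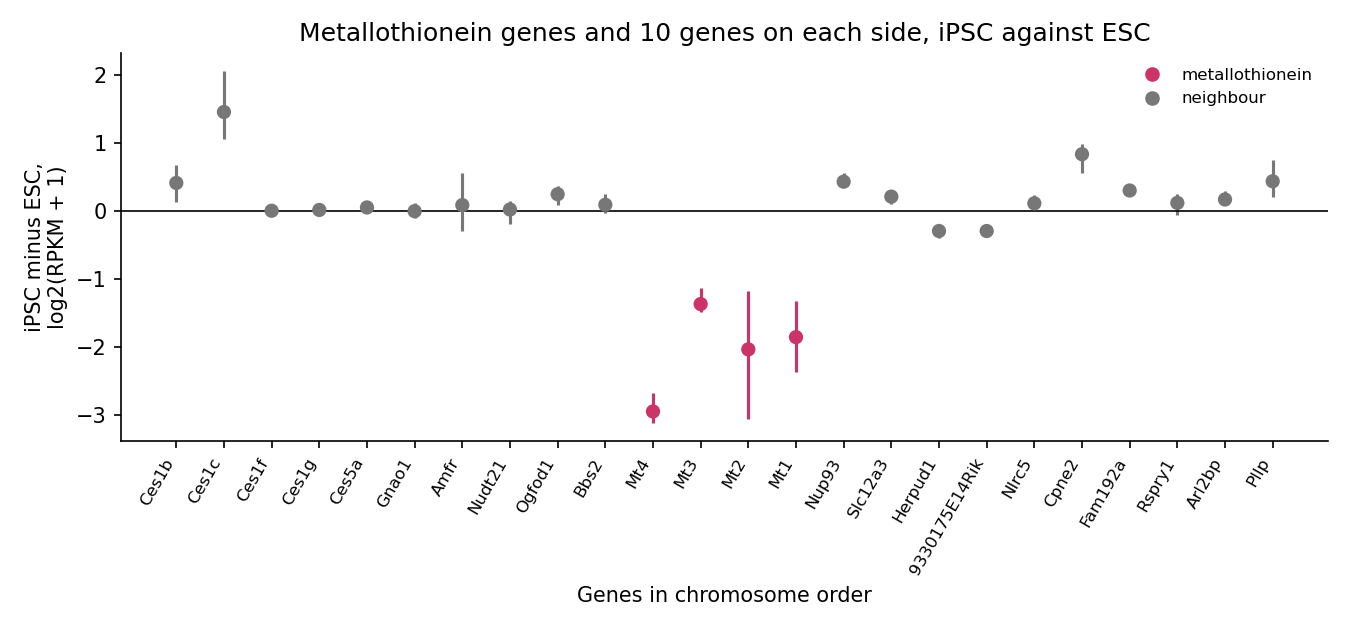
Points show the mean of the 4 iPSC lines minus ESC on the log2(RPKM + 1) scale for the metallothionein genes (pink) and the 10 genes on each side (grey), in chromosome order; vertical lines run from the lowest to the highest iPSC line. The 4 metallothioneins lie between -2.95 and -1.37 and the neighbours between -0.30 and 1.45. The added 1 flattens differences of genes at low levels, members and neighbours alike.

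Mtf1, the factor that turns on Mt1 and Mt2 with zinc, stood at 5.40 RPKM in ESC, 3.71 in MEF, 4.04 and 3.79 in control iPSC 3 and 7, and 4.16 and 4.35 in PC iPSC 5 and 13. ESC was the highest library, with a log2 difference of iPSC against ESC of -0.45 (SE 0.15, edgeR adjusted p = 0.107) that did not pass the test, and the difference from MEF was 0.16 (edgeR adjusted p = 0.388). Slc30a1, the zinc exporter of the plasma membrane and another known target of Mtf1, was at 7.56 RPKM in ESC, 5.12 in MEF, 3.85 and 3.74 in control iPSC 3 and 7, and 5.57 and 3.67 in PC iPSC 5 and 13. It was lower in iPSC than in ESC by a log2 difference of -0.90 (SE 0.22, edgeR adjusted p = 0.0465), in 4 of 4 lines. That call was lost with library totals only (-0.85), with limma (-0.73 at a pseudocount of 1) and with a minimum mean RPKM of 1 (-0.90).

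Of the 9 tested metal-sensing and metal-regulated genes, Slc30a1 was the 1 called lower in iPSC than in ESC and 0 were called higher, where all tested genes gave 5.71% and 4.71%, with a median log2 difference of 0.09 beside 0.03 over all tested genes. Against MEF 0 were higher and 2 lower, Slc40a1, the iron exporter ferroportin, at 1.01 ± 0.367 RPKM in iPSC (SD, n = 4) and 16.4 in MEF, and Atp7a, a copper-transporting ATPase, at 7.70 ± 0.276 and 12.2. The 13 tested ZIP genes, which bring zinc into the cytosol, held 1 called higher in iPSC than in ESC and 1 lower, with a median of 0.07. The higher one was Slc39a8 at 0.233 RPKM in ESC and 0.696 ± 0.106 in iPSC, and the lower one Slc39a3 at 4.82 and 2.88 ± 0.414. Against MEF 2 ZIP genes were higher and 8 lower (median -0.76 beside 0.16), among them Slc39a4, the intestinal zinc importer, at 0.0318 RPKM in MEF and 26.5 ± 3.31 in iPSC, and Slc39a14, at 16.01 and 3.11 ± 0.220.

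The ZnT genes, which move zinc out of the cytosol, gave 9 tested members, of which Slc30a2 was higher in iPSC than in ESC (6.12 ± 1.78 against 2.63 RPKM) and Slc30a1 lower. Against MEF 4 were higher and 3 lower, and Slc30a2 had no read in MEF. Copper handling genes held 2 higher and 1 lower of 14 against ESC, and 7 higher and 5 lower against MEF. Iron handling genes held 2 higher and 2 lower of 15 against ESC, and 6 higher and 6 lower against MEF. Beside these list counts stand the shares over all tested genes, 4.71% higher and 5.71% lower against ESC and 36.5% and 31.6% against MEF, and with so few genes a list the counts set no list apart. Between PC and control iPSC 0 genes of any list were called.

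Genes of the oxidative stress and glutathione list, a response that is also known to induce Mt1 and Mt2, were called lower in iPSC than in ESC for 4 of 24 and higher for 0, beside 5.71% and 4.71% of all tested genes, with a median of -0.24. The 4 were Hmox1, the haem oxygenase, at 116 RPKM in ESC and 63.4 ± 4.25 in iPSC (SD, n = 4; log2 difference -0.91, edgeR adjusted p = 0.0170), Gstm1, a glutathione transferase, at 64.4 and 33.4 ± 3.96 (-0.99, edgeR adjusted p = 0.0214), and, named after their values were seen, Txnrd1, a thioredoxin reductase, at 117 and 79.7 ± 9.04, and Gpx4, the lipid hydroperoxide peroxidase, at 869 and 586 ± 36.2. Against MEF 10 of the list were higher and 4 lower, beside 36.5% and 31.6% of all tested genes. The cystine importer Slc7a11 was at 4.74 RPKM in MEF and 0.272 ± 0.0517 in iPSC. Of 11 tested glucocorticoid response genes, 2 were lower in iPSC than in ESC and 0 higher (median -0.25). These were Dusp1, a phosphatase of MAP kinases, at 46.6 and 14.1 ± 4.47 RPKM (-1.78, edgeR adjusted p = 0.0153), and the clock gene Per1, at 10.8 and 6.35 ± 0.819. The fit behind these counts called 774 genes higher and 939 lower in iPSC than in ESC (45.2% higher), DESeq2 called 2367 (55.3% higher), and limma on log2(RPKM + 1) called 11 in all. Calls against the single ESC library thus depend on the tool, and with limma each of Slc30a1, Slc39a3, Slc39a8, Slc30a2, Hmox1, Gstm1, Dusp1, Per1, Krtdap, Evpl and Cpne2 lost its call. These names are examples, as 30 comparisons of named genes were weaker with limma on log2(RPKM + 1).

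**Figure D4:**
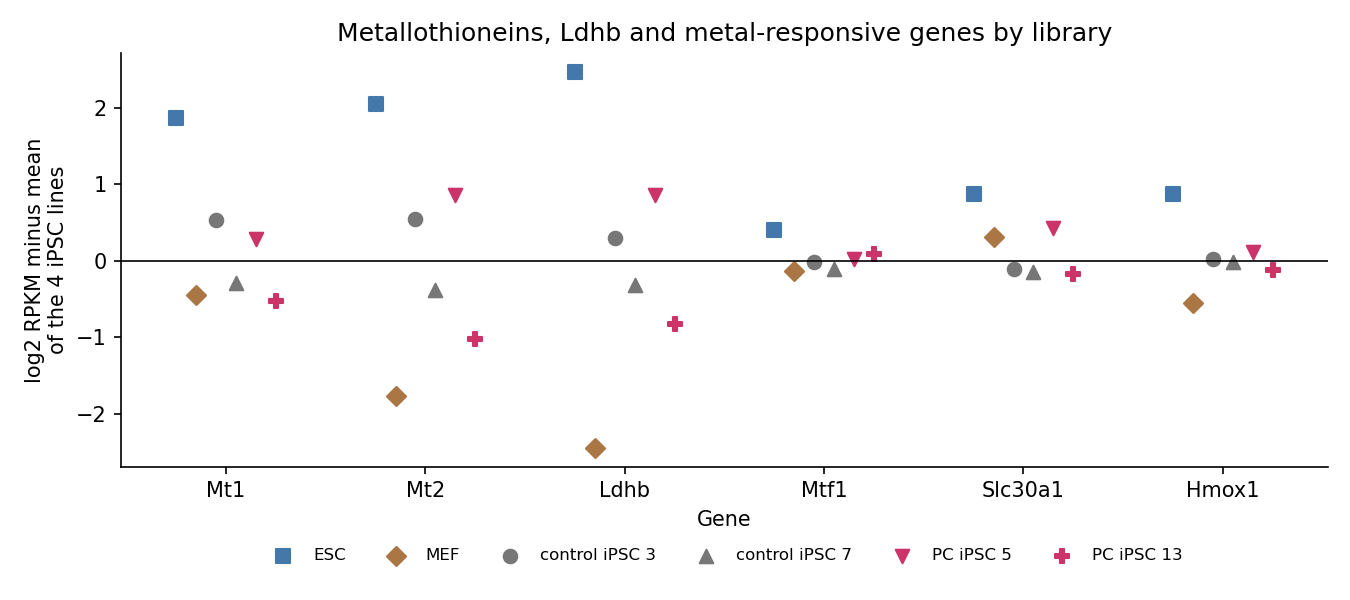
Points show log2 RPKM minus the mean log2 RPKM of the 4 iPSC lines for each gene, by library; squares are ESC, diamonds MEF, grey symbols control iPSC and pink symbols PC iPSC. ESC is the highest library for all 6 genes. PC iPSC 5 and control iPSC 3 lie above control iPSC 7 and PC iPSC 13 for all but Mtf1. Control iPSC 3 and 7 lie close together for Slc30a1 (3.85 and 3.74 RPKM) and Hmox1 (64.5 and 62.7). Ldhb was chosen for its nearness to Mt2, and Slc30a1 and Hmox1 were called lower in iPSC than in ESC. These genes do not stand for their lists. No other tested gene of the metal list was highest in ESC, and Atp7a and Slc40a1 were lowest there.

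The tissues in which Mt3 and Mt4 are best known were followed by marker lists. Squamous epithelium genes, 26 in the table with 1 to 5 at 0 in a library, summed to 93.4 RPKM in ESC, 255 in MEF, and 60.4 to 69.0 in the iPSC lines. Of 25 tested, 4 were lower in iPSC than in ESC and 0 higher, where all tested genes gave 5.71% lower and 4.71% higher. Krtdap, a keratinocyte differentiation protein, was at 2.59 RPKM in ESC and 0.340 ± 0.205 in iPSC (SD, n = 4), and Evpl, the envoplakin of the cornified envelope, at 2.01 and 0.844 ± 0.201. In MEF, Krtdap stood at 15.9 RPKM and Evpl at 8.30. The other called genes, named after their values were seen, were Grhl3, an epithelial transcription factor, at 9.56 RPKM in ESC, 0.192 in MEF and 3.21 to 5.49 in the iPSC lines, and Sfn, an epithelial 14-3-3 protein, at 51.9, 4.53 and 29.9 to 38.3. Among the 8 listed keratins, Krt4, Krt5 and Krt6a had no read in ESC, and Krt1, Krt10, Krt13, Krt14 and Krt15 stood at 0.0291 to 0.455 RPKM there. In MEF, Krt14 stood at 29.9 RPKM and Krt13 at 11.2, and the other listed keratins ran from 0 (Krt4) to 1.97 (Krt1). Against MEF, 4 of the 25 squamous genes were called higher in iPSC and 13 lower, beside 36.5% and 31.6% of all tested genes. Neuron and astrocyte genes, 14 in the table with 1 to 3 at 0, summed to 51.4 RPKM in ESC, 21.9 in MEF and 30.7 to 43.0 in the iPSC lines. Of 12 tested, 2 were lower in iPSC than in ESC and 1 higher, beside 5.71% and 4.71% of all tested genes. The lower ones were Map2, a microtubule protein of neurons, at 2.79 and 0.756 ± 0.102, and the neuronal tubulin Tubb3, at 31.1 and 13.2 ± 3.21. The other called gene, Aldh1l1, a folate enzyme used as an astrocyte marker, was higher, at 5.53 and 10.9 ± 1.23. The part of these cell types in the Mt3 and Mt4 reads of ESC was not tested.

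For each member the 5 genes of most similar pattern were taken from 15113 named genes by the root mean square distance of centred log2(RPKM + 1) over the 6 libraries. Since ESC is the highest library for every member, these are genes high in ESC by construction, and their levels are a description. The distance also covers MEF and the iPSC lines, so the choice favours genes with a like order of libraries too. For Mt1 they were Igsf9, Cldn3, Plxdc1, Gjb5 and Car4, at distances of 0.16 to 0.27. Cldn3, a claudin of tight junctions, stood at 6.55 RPKM in ESC, 1.07 in MEF, 1.92 and 1.37 in control iPSC 3 and 7, and 2.43 and 1.14 in PC iPSC 5 and 13. Lines 3 and 5 were its higher iPSC lines, as for Mt1, a match that the choice by distance favours.

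For Mt2 they were Calca, Ldhb, Tspo2, Rhox9 and Rhox6 (0.31 to 0.42). Ldhb, the heart-type subunit of lactate dehydrogenase and the most abundant of them, stood at 460 RPKM in ESC, 15.2 in MEF, 102 and 66.2 in control iPSC 3 and 7, and 150.3 and 46.5 in PC iPSC 5 and 13. Its order of libraries was that of Mt2, a match that the choice by distance favours: ESC, PC iPSC 5, control iPSC 3, control iPSC 7, PC iPSC 13 and MEF. The X-linked homeobox genes Rhox6 and Rhox9 were highest in ESC (10.1 and 8.81 RPKM) and next in PC iPSC 5 (8.84 and 6.67), with 0 in MEF.

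For Mt3 the nearest were Crlf2, Grin1, Neu1, Scnn1a and Tmem106c (0.07 to 0.11), and for Mt4 Dll1, Krt17, Dner, Gli1 and Fgg (0.35 to 0.40). Grin1, a subunit of the NMDA receptor, stood at 2.69 RPKM in ESC, 0.380 in MEF and 0.117 to 0.542 in the iPSC lines. Dll1, a Notch ligand, stood at 6.31 RPKM in ESC, 0.135 in MEF and 0.278 to 0.639 in the iPSC lines, and Krt17, a keratin of stressed and appendage epithelium, at 7.62, 1.33 and 0.120 to 1.35. With a pseudocount of 0.1 instead of 1 only 1, 0, 1 and 1 of the 5 genes stayed among the nearest 5 for Mt1, Mt2, Mt3 and Mt4, those being Cldn3, Grin1 and Krt17, and Ldhb moved to place 7 for Mt2, so the names depend on how low levels are weighted.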

How the data were processed

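Gene expression was measured by RNA sequencing in 6 mouse libraries. The series table, per the file headers, holds uniquely assigned read counts per gene and library totals, and RPKM values, which the authors deposited beside them. Count, length and total gave the deposited RPKM for all but 93 genes (relative tolerance 1e-09), and for all 4 members. The 6 coverage columns were not used. The submitters' processing notes name CASAVA 1.8.2 and mm10 without a role. Aligner, counter, annotation and strand use were not given in the sources used here.

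For the main test, counts entered the quasi-likelihood test of edgeR 4.0.16 (R 4.3.3) after TMM scaling, for the 16435 genes that passed filterByExpr. The model had 4 group means over 6 libraries (residual degrees of freedom 2), and ESC and MEF, with 1 library each, borrow the spread of the iPSC lines. Benjamini-Hochberg adjustment ran over all genes tested, and the threshold was 0.05. Alternatives were DESeq2 1.42.0, limma 3.58.1 on log2(RPKM + 1) and log2(RPKM + 0.1), other scalings and filters, and leaving out each iPSC line. Positions are from RefSeq on GRCm38.p6, promoter sequences from RefSeq and coding sequences from GENCODE M21.

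Named genes are the members, Mtf1, Slc30a1, the 5 genes of nearest pattern per member, up to 2 called genes of largest change in each direction per list, and flanking genes. The members, the lists (163 of 169 genes found in the table) and the rules were chosen with earlier results of these data known.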

Additional observations from a re-analysis of the deposited data

How the results depend on the processing

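Counts of called genes between PC and control iPSC were 0 under every setting but 1, with a range of 0 to 309 when 1 iPSC line was left out (309 without control iPSC 7). Between iPSC and ESC the 1713 called genes became 11 with limma on log2(RPKM + 1) and 3 on log2(RPKM + 0.1), and 1781 to 2873 when 1 line was left out (2873 without control iPSC 3, 2734 without control iPSC 7). The Mt1 difference of PC against control iPSC ranged from -0.69 to 0.21 with 1 line left out. The Mt2 difference was -0.17 with limma at either pseudocount, and ranged from -1.18 to 0.66 with 1 line left out, below 0 without control iPSC 7 (-0.37) or PC iPSC 5 (-1.18). Against MEF the Mt1 difference ranged from 0.27 to 0.70 with 1 line left out, and the Mt2 difference lost its call with library totals only (1.95), DESeq2 (1.88), limma (1.75 and 1.77) and a minimum mean RPKM of 1 (1.87). Without each line in turn the Mt2 difference against MEF was 1.35 to 2.29. A fit without 1 line keeps only 1 line in an iPSC group. No call or count of calls from such fits is read as a result, including the counts above. The Mt3 adjusted p for PC against control iPSC ranged from 0.565 to 1.00 with 1 line left out, its direction reversing without PC iPSC 5 (1.00). Nothing is read from these Mt3 adjusted p-values or from that reversal, because the iPSC lines held too few Mt3 reads for a test to inform. PC iPSC 5 held 4 of the 5 reads, so leaving it out removed most of them. The ratio of ESC to iPSC ranged from 15.7 to 78.6 for Mt3 and from 41.2 to 124 for Mt4. With TMM-scaled totals, an alternative chosen after seeing the data, it was 21.7 and 56.9. The cause of these changes was not tested. Of 75 called comparisons of other named genes, 43 were called under every setting that tested them, 32 lost the call under at least 1 and 0 reversed. No paired analysis was possible because the line numbers 3, 7, 5 and 13 are not shared between groups. Precision for Mt3 and Mt4 is limited by their few reads, and for ESC and MEF by 1 library each.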
